A study of Mus musculus with 12 samples.

Results

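The quantity described here is the time-of-day difference of the response to myocardial infarction (MI) in the mouse heart. For each gene it was computed as (wake MI minus wake sham) minus (sleep MI minus sleep sham), from the group means of log2(signal + 16). All 12 of the 12 arrays of the series entered it, 3 per group. Each array held the heart RNA of a C57Bl/6 mouse that had its left anterior descending coronary artery tied (MI, labelled as infarcted myocardium) or a sham operation. The wake groups (Wake-MI and Wake-SH) were operated between ZT13 and ZT15 and collected at ZT23, and the sleep groups (Sleep-MI and Sleep-SH) were operated between ZT1 and ZT3 and collected at ZT11. ZT is the hour counted from lights on. Every heart was taken 8 hours after surgery, so the hour of surgery and the hour of collection changed together and cannot be told apart. No group was an unoperated heart, and the labels name no other genotype or drug. Of 12393 genes with a probe set of 1 gene symbol, each read from its brightest probe set, 8109 passed a filter on the mean signal and were tested.

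The heart keeps its own circadian clock. Bmal1 (Arntl in these files) and Clock switch on the Per, Cry and Rev-erb (Nr1d1 and Nr1d2) genes and the PAR bZIP factors Dbp, Tef and Hlf, whose products feed back on the clock or pass its rhythm on. Mice are active at night, and their blood glucocorticoids are highest around the start of the active period. Glucocorticoids, also released by surgery and injury, act in the heart through the glucocorticoid receptor on genes such as Fkbp5, Per1 and the metallothioneins. Ligation adds cell death, cytokine signals and an influx of neutrophils in its first hours.

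The arrays were alike in scale, with median signals of 32.7 to 34.7 and a within-group correlation across genes of 0.974 to 0.988. The heart markers were high on every array (Myh6 8743 to 12503, Tnnt2 9167 to 12745), while the skeletal muscle marker Actn3 stayed at 0.702 to 10.1 and the liver marker Alb at 0.799 to 13.7. Wake-SH replicate 3 stood apart in its 11 atrial markers of 11 listed, with a summed signal of 15614 against 2382 and 2838 in the other wake sham hearts. Sleep-SH replicate 3 also stood apart, with little Il6, Ptx3 and Cxcl5 and much Myh7 and Nppb. Values without 1 array are given beside several genes whose difference it moved. The beta-actin 3'/5' ratio, a measure of RNA integrity, was 1.79 ± 0.02 (SD, n = 3) in wake sham, 2.18 ± 0.28 in sleep sham, 2.40 ± 0.45 in sleep MI and 2.60 ± 0.62 in wake MI hearts. The GAPDH 3'/5' ratio was 0.769 ± 0.009 in wake sham, with means of 0.824 to 0.935 in the other groups. The mean log2 signal of the hybridisation controls was 9.92 ± 0.03, against means of 10.12 to 10.26. In both measures every wake sham array was below every other array. Wake sham, the lowest group in each measure, is also part of the sham pair on which most of the large differences rest. The part of these measures was tested only through the beta-actin ratio, as a model term. In bulk tissue, fewer cells of a type and less RNA per cell cannot be told apart.

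No gene passed the test for a time-of-day difference of the MI effect. With limma, 0 of 8109 genes had an adjusted p below 0.05 (0%), and the smallest adjusted p was 0.0516, for Timp3. At an unadjusted p below 0.05 there were 848 genes (10.5%), 448 of them with a more positive MI effect in wake hearts (5.52%) and 400 with a more negative one (4.93%). A difference of at least 1 on the log2 scale was seen in 97 genes, 60 positive and 37 negative, against a median standard error of 0.205. Across genes the wake and sleep effects had a Pearson correlation of 0.638, given as a description, since genes are not independent replicates. The count of 0 rested on particular arrays: it was 37 without Sleep-SH replicate 3, 22 without Wake-SH replicate 2, 1 without Sleep-SH replicate 1 and 0 without any other single array. Without both Wake-SH replicate 3 and Sleep-SH replicate 3 it was 22.

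**Figure D1:**
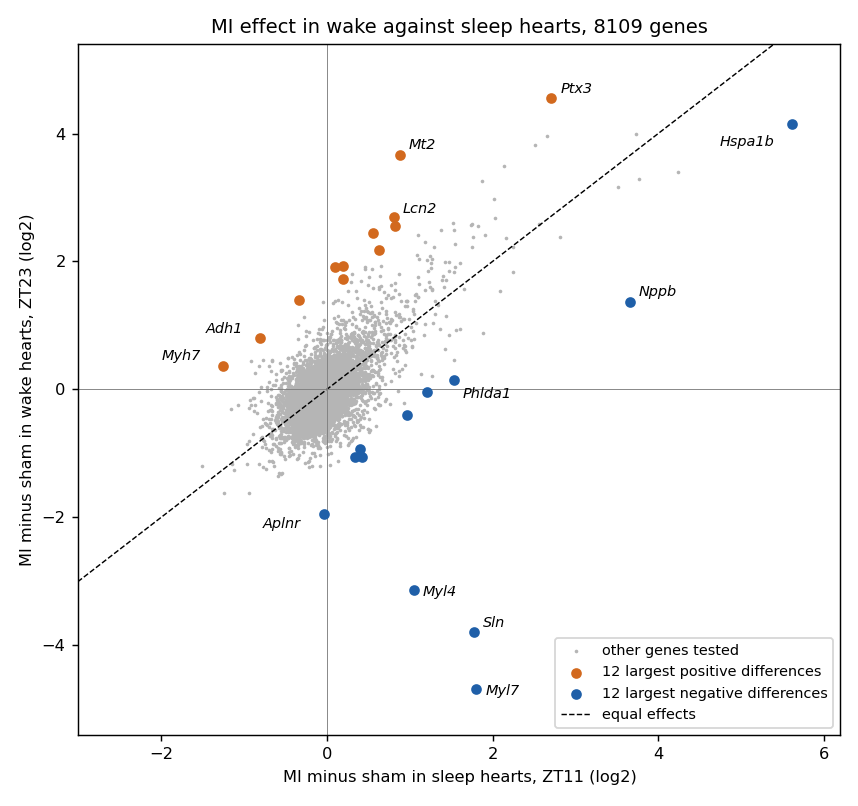
MI minus sham in wake hearts (vertical axis, log2) against MI minus sham in sleep hearts (horizontal axis, log2) for 8109 genes, each point a gene from group means of 3 arrays. The dashed line marks equal effects, orange points are the 12 largest positive and blue points the 12 largest negative differences; Mt2 lies highest above the line and Myl7 farthest below it.

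The MI effect itself was called for more genes in the wake hearts. In wake hearts 1495 genes (18.4%) had an adjusted p below 0.05 in limma, 633 higher and 862 lower after MI. In sleep hearts there were 217 (2.68%), 137 higher and 80 lower. These counts do not show that the effects differed, since the difference was tested and no gene passed. The wake count was 838 without Wake-SH replicate 3, 872 without Wake-SH replicate 1 and 272 with the beta-actin ratio, lowest in wake sham and highest in wake MI, as a model term. The sleep count was 57 without Sleep-MI replicate 1, 124 without Sleep-MI replicate 2, 109 without Sleep-MI replicate 3, 94 without Sleep-SH replicate 1 and 83 without Sleep-SH replicate 3.

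The same difference can be read as the wake minus sleep change in MI hearts less the wake minus sleep change in sham hearts, so it divides exactly between an MI pair and a sham pair of groups. Between sham hearts, limma called 123 genes (1.52%), 34 higher (0.419%) and 89 lower (1.1%) in wake sham. Between MI hearts it called 6 (0.074%): Bmi1, Cry1 and Gsta3 were higher and Dbp, Nr1d2 and Tcap lower in wake MI (0.037% in each direction). The sham count was 30 without Wake-SH replicate 1, 42 without Wake-SH replicate 3, 51 without Sleep-SH replicate 1, 35 without Sleep-SH replicate 2 and 229 without Sleep-SH replicate 3. The beta-actin ratio as a model term left 38. The 6 genes of the MI pair were 0 without Wake-MI replicate 2, Sleep-MI replicate 1 or Sleep-MI replicate 2, 2 without Wake-MI replicate 1 or Wake-SH replicate 1, and 3 without Sleep-MI replicate 3 or Sleep-SH replicate 1.

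A difference was counted as mostly the sham pair's where that pair made up at least 66.7% of it, and as mostly the MI pair's in the mirror case. Of the 97 differences of at least 1, the sham pair made up most of 74 (76.3%), the MI pair most of 4, and both shared 19. Among the 60 positive ones the counts were 53, 1 and 6, and among the 37 negative ones 21, 3 and 13. Over all 8109 genes the sham pair made up most of 46.5%, the MI pair of 33.1% and both 20.4%. These shares describe genes picked by the size of the difference and carry no test. The sham and MI pairs share no arrays.

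All of the 12 largest positive differences were mostly the sham pair's. In the order of their size these genes were Mt2, Slc10a6, Lcn2, Ptx3, Trp53inp1, Ppbp, Cxcl5, Rgcc, Myh7, Adh1, Il4ra and Bmp4. For 7 of the 12 limma called wake sham lower than sleep sham (1.1% of all genes). For 10 of 12 the sham groups did not overlap (8.15% of all genes lie in that direction without overlap). The MI pair passed for 0 of 12 (0.074% of all genes). Each sham value here is part of the difference that ranked the genes, so these counts are a description. Whether the parts of the sham and MI pairs were unequal was tested by the wake minus sleep difference averaged over MI and sham. That test passed for 1 of the 12, Mt2. The sham pair stayed the larger part in 11 or 12 of the 12 under every array left out and with the beta-actin ratio in the model. The count of 7 was 2 without Wake-SH replicate 1, 4 without Wake-SH replicate 3 or Sleep-SH replicate 2, 12 without Sleep-SH replicate 3 and 2 with the covariate.

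**Figure D2:**
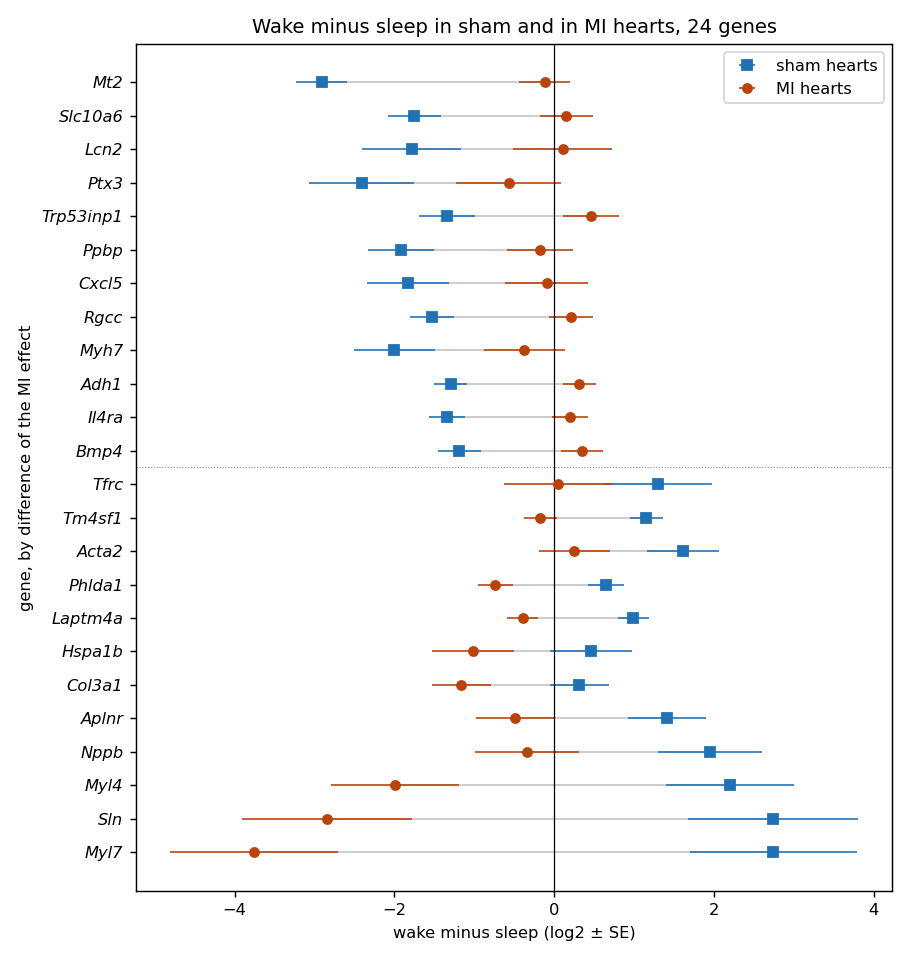
Wake minus sleep on the log2 scale, mean difference ± SE from limma, in sham hearts (blue squares) and in MI hearts (orange circles) for the 12 largest positive (top) and 12 largest negative (bottom) differences of the MI effect. In the upper block the squares lie between -2.91 and -1.19 and the circles near 0; for Myl7, Sln and Myl4 at the bottom, squares and circles lie on opposite sides of 0.

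Mt2, a metallothionein that binds zinc and copper and is induced by metals and glucocorticoids, showed the largest positive difference, 2.79 (SE 0.45, 95% interval 1.82 to 3.76, limma adjusted p = 0.0975). Its signal was 441, 814 and 386 in wake sham, 5275, 5863 and 2069 in sleep sham, 7345, 6765 and 6265 in wake MI and 7114, 7168 and 7834 in sleep MI. The wake sham hearts lay below every other heart, and the MI groups overlapped. The sham pair differed by -2.91 (limma adjusted p = 0.000401) and the MI pair by -0.12 (limma adjusted p = 0.966). Tested as an average over MI and sham, the wake minus sleep difference was -1.52 (limma adjusted p = 0.00625). Mt2 rose after MI in wake hearts by 3.67 (limma adjusted p = 1.96e-05), while the sleep difference of 0.88 did not pass (limma adjusted p = 0.177). The difference of the effects passed without Sleep-SH replicate 3 (3.26, limma adjusted p = 0.000417) and without Wake-SH replicate 2 (3.11, limma adjusted p = 0.00803). It ranged from 2.52 to 3.26 with 1 array left out. Its neighbour Mt1 had a difference of 0.91 (SE 0.21), with 3723, 4808 and 3176 in wake sham, 8455, 6971 and 6413 in sleep sham, 10169, 8387 and 8247 in wake MI and 7925, 8933 and 9939 in sleep MI. The sham pair differed by -0.91 (limma adjusted p = 0.00814) and the MI pair by -0.00016. Without Wake-SH replicate 2 the Mt1 difference was 1.07 (limma adjusted p = 0.042), and it ranged from 0.77 to 1.07 with 1 array left out.

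Promoters of the metallothioneins and of Slc10a6 are shown because Mt2 and Slc10a6 have the largest positive differences and Mt1 is the neighbour and paralogue of Mt2. The stretches are the 250 bases before the start, 5' to 3' on the gene's strand, from RefSeq on GRCm38.p6: Mt2 at chr8:94172368-94172617 (plus strand), Mt1 at chr8:94178839-94179088 (plus) and Slc10a6 at chr5:103629404-103629653 (minus). In Mt2 the capitals are metal response element cores (TGCACNC or TGCGCNC, either strand), with first bases at -223, -128 and -50 from the start. In Mt1 they are a glucocorticoid response element (GNACANNNTGTNC, which reads alike on both strands) at -94 and a metal core at -23, and in Slc10a6 a glucocorticoid response element at -163.
Mt2: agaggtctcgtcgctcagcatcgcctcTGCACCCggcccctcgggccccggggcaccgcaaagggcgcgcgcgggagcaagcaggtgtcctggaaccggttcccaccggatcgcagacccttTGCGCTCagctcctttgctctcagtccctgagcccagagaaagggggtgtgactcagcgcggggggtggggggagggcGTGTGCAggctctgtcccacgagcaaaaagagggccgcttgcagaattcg
Mt1: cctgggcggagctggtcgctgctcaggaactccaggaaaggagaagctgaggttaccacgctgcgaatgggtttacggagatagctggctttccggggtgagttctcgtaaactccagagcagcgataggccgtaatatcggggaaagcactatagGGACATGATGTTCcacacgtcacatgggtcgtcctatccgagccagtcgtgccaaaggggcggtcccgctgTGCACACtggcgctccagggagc
Slc10a6: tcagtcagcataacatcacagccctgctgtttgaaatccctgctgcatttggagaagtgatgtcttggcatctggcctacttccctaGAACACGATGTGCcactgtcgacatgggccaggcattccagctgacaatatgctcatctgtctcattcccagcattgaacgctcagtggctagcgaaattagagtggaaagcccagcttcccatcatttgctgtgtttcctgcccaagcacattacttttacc
The metal core letters occur in 25.7% and the glucocorticoid letters in 0.475% of 32851 mouse promoters of 300 bases. Of 35 genes searched (the clock genes, the 12 largest positive differences, the smallest p-values and Mt1), 30 had a promoter in the table. Among these 30, 14 had the metal core and 2, Mt1 and Slc10a6, the glucocorticoid letters. A gene was counted if any of its promoters, up to 3, had the letters, whereas the percentages count single promoters. The glucocorticoid motif was chosen after the values were seen. A match of letters is a description and no evidence of binding in these hearts.

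Slc10a6, a carrier of sulphated steroids, had a difference of 1.90 (SE 0.47, limma adjusted p = 0.209). It read 42.7, 138 and 75.6 in wake sham and 326, 493 and 165 in sleep sham, against 523, 463 and 511 in wake MI and 436, 518 and 396 in sleep MI. The sham groups did not overlap (-1.75, limma adjusted p = 0.0188), and the MI groups did (0.15). Without Sleep-SH replicate 3 the difference was 2.30 (limma adjusted p = 0.0223), and it ranged from 1.56 to 2.30 with 1 array left out. Il4ra, the receptor chain for interleukin-4 and interleukin-13, had a difference of 1.55 (SE 0.32, limma adjusted p = 0.133). Its signal was 33.4, 33.7 and 39.2 in wake sham, 132, 171 and 64.7 in sleep sham, 221, 186 and 247 in wake MI and 177, 189 and 193 in sleep MI. The 3 wake sham hearts were the lowest of the series (-1.35 in the sham pair, limma adjusted p = 0.00832), although 1 of the gene's 3 probe sets gave a difference of opposite sign. That probe set gave -0.091 at a mean signal of 19.8, against 141 for the one used. Without Sleep-SH replicate 3 the Il4ra difference was 1.90 (limma adjusted p = 0.000829), and it ranged from 1.29 to 1.90 with 1 array left out.

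Rgcc, a regulator of the cell cycle that is also expressed in endothelium, had a difference of 1.74 (SE 0.39, limma adjusted p = 0.133). It read 535, 703 and 417 in wake sham, 926, 2683 and 1604 in sleep sham, 2035, 1978 and 2290 in wake MI and 1936, 1786 and 1725 in sleep MI, with a sham difference of -1.53 (limma adjusted p = 0.0133). Its difference of effects was 2.12 without Sleep-SH replicate 1 (limma adjusted p = 0.0434) and ranged from 1.36 to 2.12 with 1 array left out. Bmp4, a secreted growth factor, had a difference of 1.53 (SE 0.37, limma adjusted p = 0.19). It read 80.2, 101 and 134 in wake sham, 274, 316 and 191 in sleep sham, 449, 246 and 487 in wake MI and 318, 376 and 211 in sleep MI. For both genes every wake sham array was below every sleep sham array. The MI arrays overlapped for Bmp4, and for Rgcc those of ZT23 lay just above those of ZT11.

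Adh1, an alcohol and retinol dehydrogenase, was the only gene of the 12 in which the MI groups lay on opposite sides of their shams without overlap. Its signal was 311, 605 and 441 in wake sham, 1017, 667 and 678 in wake MI, 1201, 1205 and 904 in sleep sham and 634, 611 and 609 in sleep MI. Adh1 rose by 0.80 after MI in wake hearts (limma adjusted p = 0.0174), and the sleep difference was -0.81 (limma adjusted p = 0.0568). The difference of the effects was 1.61 (SE 0.29, limma adjusted p = 0.133). The sham pair differed by -1.29 (limma adjusted p = 0.00699) and the MI pair by 0.31, also without overlap. Without Wake-SH replicate 2 the difference was 1.84 (limma adjusted p = 0.0103) and without Sleep-SH replicate 3 it was 1.74 (limma adjusted p = 0.0223). It ranged from 1.37 to 1.84 with 1 array left out.

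Inflammatory genes among the 12 depended on Sleep-SH replicate 3. Ptx3, a soluble pattern recognition protein, read 8.54, 8.76 and 16 in wake sham and 206, 436 and 13 in sleep sham. In wake MI it read 512, 811 and 554 and in sleep MI 937, 917 and 901. The third sleep sham heart thus sat with the wake shams. Its difference was 1.84 (SE 0.93, limma adjusted p = 0.503), and 2.99 without that array (limma adjusted p = 0.0019), but 1.01 without Sleep-SH replicate 2 (limma adjusted p = 0.747).

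Cxcl5, a chemokine for neutrophils, had a similar layout. It read 4.4, 4.94 and 5.7 in wake sham, 116, 125 and 6.39 in sleep sham, 95, 185 and 68.3 in wake MI and 105, 121 and 121 in sleep MI, with a difference of 1.74 (SE 0.73, limma adjusted p = 0.432) that was 2.61 without Sleep-SH replicate 3 (limma adjusted p = 0.00653). The Cxcl5 difference ranged from 1.28 to 2.61 with 1 array left out. Because the wake sham signals of Ptx3 and Cxcl5 lie at or under the constant of 16 added before log2, their sizes depend on it. Ptx3 gave 2.63 with 1 added and 1.01 with 64 added, and Cxcl5 gave 2.88 and 0.91. Lcn2, an iron-carrier binding protein of neutrophils and injured tissue, read 121, 223 and 98.2 in wake sham, 601, 1126 and 201 in sleep sham, 1545, 1852 and 333 in wake MI and 594, 897 and 1454 in sleep MI. Its difference of 1.89 had an SE of 0.88 (limma adjusted p = 0.475), and both pairs overlapped.

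The 16 neutrophil markers measured of 19 listed include Lcn2, so their summed signal is not separate from that gene. Lcn2 alone gave 1852 of the 3413 on Wake-MI replicate 2. The sum was 306 to 826 in wake sham and 567 to 2145 in sleep sham. In wake MI it was 1411 to 3413 and in sleep MI 1854 to 3307. No marker was at 0 on any array, and 3 were under 16 on every array. Their part in the result was not tested. Ppbp, a platelet chemokine, read 18.4, 22.1 and 67.3 in wake sham and 304, 131 and 109 in sleep sham, against 168, 148 and 51.2 in wake MI and 115, 118 and 149 in sleep MI. Its difference was 1.74 (SE 0.58, limma adjusted p = 0.331) and its sham difference -1.92 (limma adjusted p = 0.0352). Ppbp is itself among the 11 platelet markers measured of 12 listed. Their summed signal was 324 to 621 in wake sham and 629 to 1104 in sleep sham. It was 685 to 803 in wake MI and 722 to 736 in sleep MI. None of these markers was at 0, and 1 was under 16 on every array. Their part was not tested either.

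Of the 2 remaining genes, Trp53inp1, a p53 target, had a difference of 1.80 (SE 0.49, limma adjusted p = 0.222). The other of its 2 probe sets gave -0.060 at a mean signal of 6.14, against 380 for the one used. Their mean gave 0.87. Trp53inp1 read 94.1, 191 and 134 in wake sham and 285, 734 and 231 in sleep sham. In wake MI it read 739, 582 and 382 and in sleep MI 402, 346 and 441. Myh7, the slow myosin heavy chain, read 140, 295 and 174 in wake sham and 377, 542 and 2675 in sleep sham, against 313, 218 and 242 in wake MI and 270, 442 and 313 in sleep MI. One sleep sham heart, replicate 3, was far above the rest, and the difference of 1.63 became 0.79 without it. The genes next in size, Map3k6 at 1.51 and Sox17 at 1.46, were close to the last of the 12.

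**Figure D3:**
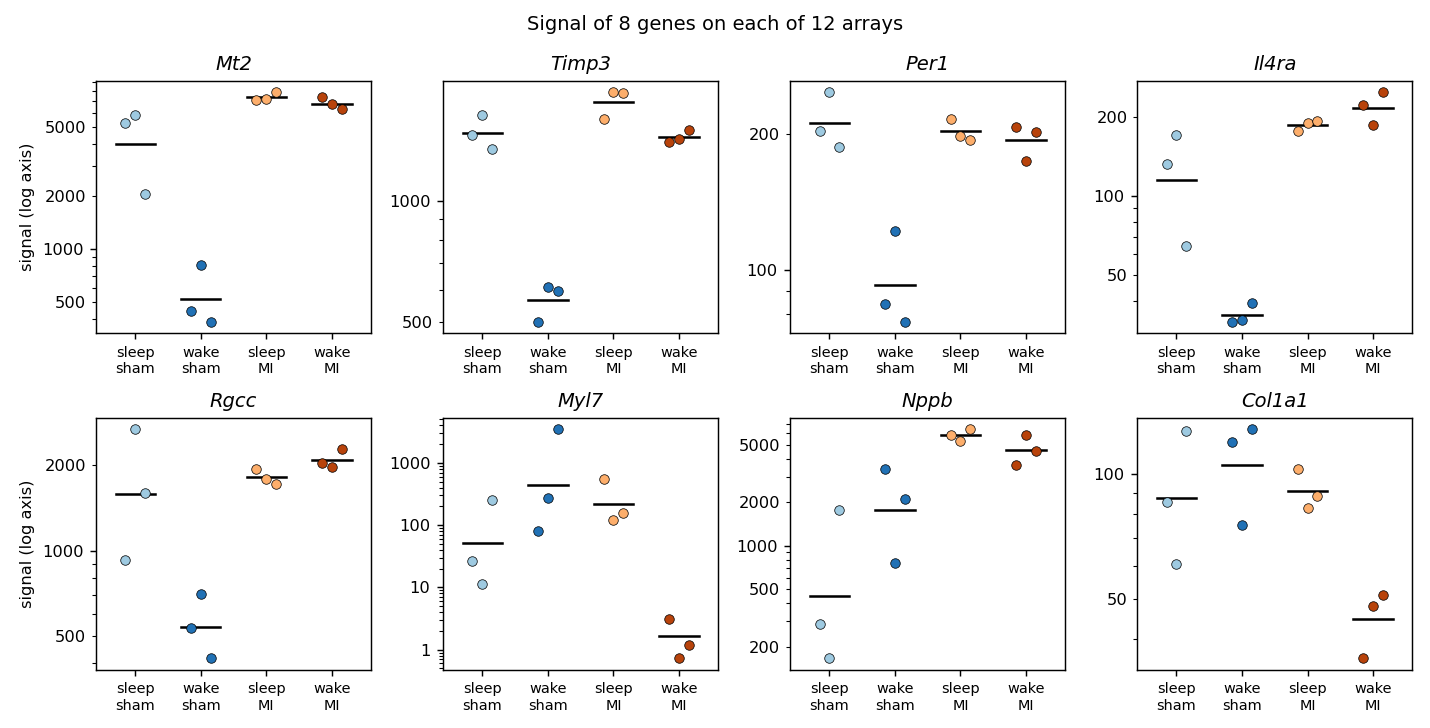
Signal on a log axis of 8 genes on each of 12 arrays, points being single hearts and bars the group means on the log2(signal + 16) scale, converted back to signal. Wake sham is the low group for Mt2, Timp3, Per1, Il4ra and Rgcc, whereas for Col1a1 the wake MI hearts are the low group at 36 to 51.2.

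The 12 largest negative differences were more mixed, with 6 mostly the sham pair's, 2 mostly the MI pair's and 4 shared. The sham pair was the larger part for Nppb, Aplnr, Laptm4a, Acta2, Tm4sf1 and Tfrc, the MI pair for Col3a1 and Hspa1b, and both for Myl7, Sln, Myl4 and Phlda1. The test of unequal parts, the wake minus sleep difference averaged over MI and sham, passed for 0 of the 12. Limma called wake sham higher than sleep sham for 2 of the 12, Laptm4a and Tm4sf1 (0.419% of all genes). In 5 of 12 the wake sham arrays were all above the sleep sham arrays (11.9% of all genes), and in 5 of 12 the wake MI arrays were all below the sleep MI arrays (4.4% of all genes).

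Myl7, Sln and Myl4 head this side, and all are expressed in the atria rather than the ventricles. Myl7, the atrial regulatory light chain, had a difference of -6.50 (SE 1.48, 95% interval -9.68 to -3.31, limma adjusted p = 0.139). It read 79.3, 268 and 3476 in wake sham, 3.07, 0.727 and 1.21 in wake MI, 26.3, 11.5 and 256 in sleep sham and 550, 121 and 158 in sleep MI. Wake MI hearts lay below all others, and the sham hearts of both times varied by more than 10-fold within a group. The sham pair differed by 2.74 and the MI pair by -3.75. With 1 added before log2 the difference was -9.71, with 64 added -4.25, and without Wake-SH replicate 3 it was -5.03. Without Sleep-SH replicate 3 it was -7.50 (limma adjusted p = 0.0357).

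Sln, which encodes the calcium pump inhibitor sarcolipin, had a difference of -5.58 (SE 1.51, limma adjusted p = 0.222), and -10.38 or -3.27 with 1 or 64 added and -4.01 without Wake-SH replicate 3. It read 27.6, 120 and 1995 in wake sham, 0.449, 0.32 and 0.443 in wake MI, 3.87, 1.04 and 103 in sleep sham and 270, 56.2 and 62.3 in sleep MI. Myl4, the atrial essential light chain, had a difference of -4.19 (SE 1.13, limma adjusted p = 0.222), and -2.91 without Wake-SH replicate 3. It read 152, 290 and 3243 in wake sham, 43.5, 44.3 and 51.9 in wake MI, 70.6, 59.5 and 250 in sleep sham and 425, 158 and 186 in sleep MI. The atrial marker list holds Myl7, Sln and Myl4, so its summed signal is not separate from these genes. That sum was lowest in wake MI and highest in Wake-SH replicate 3. It was 2382 to 15614 in wake sham and 1554 to 2033 in wake MI. In sleep sham it was 2260 to 5382 and in sleep MI 2407 to 3486. Among 11 of 11 listed none was at 0 and 1 was under 16 on every array, and the amount of atrial tissue in each sample was not tested.

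Nppb, the gene of the B-type natriuretic peptide released by strained muscle, had a difference of -2.29 (SE 0.92, limma adjusted p = 0.407). Its signal was 3420, 759 and 2118 in wake sham, 288, 167 and 1778 in sleep sham, 3655, 5902 and 4514 in wake MI and 5819, 5331 and 6426 in sleep MI. Nppb rose by 3.66 after MI in sleep hearts (limma adjusted p = 0.00983), and the wake difference was 1.37 (limma adjusted p = 0.156). The sham groups overlapped at Sleep-SH replicate 3, without which the difference was -3.26 (limma adjusted p = 0.032); without Sleep-SH replicate 2 it was -1.62. The related Nppa had a difference of -0.37, which was 0.31 without Wake-SH replicate 3. Ankrd1, another strain gene, had -0.26, which turned to 0.064 without Sleep-SH replicate 1 and 0.051 with the beta-actin ratio in the model.

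Among the sham-led genes, Laptm4a, a lysosomal membrane protein, read 2901, 2740 and 2179 in wake sham and 1033, 1164 and 1806 in sleep sham, against 1425, 1348 and 995 in wake MI and 1442, 1761 and 1735 in sleep MI. Its difference was -1.39 (SE 0.27, limma adjusted p = 0.133), with 0.99 in the sham pair (limma adjusted p = 0.0205) and -0.40 in the MI pair. The difference was -1.62 without Sleep-SH replicate 3 (limma adjusted p = 0.00653) and ranged from -1.62 to -1.23 with 1 array left out. Tm4sf1, a tetraspan membrane protein of endothelium, read 1174, 996 and 1615 in wake sham, 643, 449 and 569 in sleep sham, 454, 789 and 742 in wake MI and 751, 755 and 678 in sleep MI. It fell by 0.93 after MI in wake hearts (limma adjusted p = 0.00805), and the sleep difference was 0.40 (limma adjusted p = 0.345). The difference of -1.32 (SE 0.29, limma adjusted p = 0.133) had the opposite sign in 1 of its 2 probe sets. This set gave 0.0053 at a mean signal of 21, against 801 for the one used.

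Aplnr, the apelin receptor of endothelium, had a difference of -1.90 (SE 0.69, limma adjusted p = 0.358). It read 754, 407 and 637 in wake sham, 228, 118 and 327 in sleep sham, 69.8, 106 and 344 in wake MI and 384, 140 and 149 in sleep MI, so the shams did not overlap and the MI hearts did. Acta2, the smooth muscle actin, had -1.36 (SE 0.63, limma adjusted p = 0.475) with 1341, 333 and 1323 in wake sham against 236, 244 and 324 in sleep sham. Of its 2 probe sets 1 had the opposite sign, 0.46 at a mean signal of 6.07, against 626 for the one used. With 1 array left out the Acta2 difference ranged from -0.91 (without Wake-MI replicate 1) to -2.01 (without Wake-SH replicate 2). Tfrc, the transferrin receptor, had -1.25 (SE 0.95, limma adjusted p = 0.675), and its arrays overlapped in both pairs. Without 1 array the Tfrc difference was -0.70 (Sleep-MI replicate 1), -0.82 (Wake-SH replicate 3), -0.83 (Wake-SH replicate 1), -1.88 (Sleep-MI replicate 2) or -2.11 (Wake-SH replicate 2). Phlda1 read 472, 319 and 484 in wake sham, 317, 237 and 237 in sleep sham, 305, 536 and 614 in wake MI and 716, 764 and 888 in sleep MI. Both of its pairs were apart without overlap, and its difference was -1.38 (SE 0.31, limma adjusted p = 0.139). Ccl8 at -1.25 and Dkk3 at -1.22 lay next in size.

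The MI pair made up most of the difference of Col3a1 and Hspa1b. Col3a1, a fibrillar collagen, read 447, 608 and 1000 in wake MI and 2195, 882 and 1635 in sleep MI, with 1301, 904 and 2168 in wake sham and 908, 915 and 1581 in sleep sham. The MI groups overlapped at 1 array each, and the difference of -1.48 (SE 0.52, limma adjusted p = 0.342) was made of -1.16 in the MI pair and 0.32 in the sham pair. Hspa1b, an inducible Hsp70 chaperone, read 451, 3135 and 1981 in wake MI and 3595, 2263 and 2938 in sleep MI, against 38.2 to 115 in wake sham and 31.9 to 56.1 in sleep sham. It rose after MI at both times, by 4.14 in wake hearts and 5.62 in sleep hearts. The difference of -1.48 (SE 0.73, limma adjusted p = 0.493) rested on Wake-MI replicate 1 and was -0.67 without it.

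The smallest adjusted p in the series belonged to Timp3, a tissue inhibitor of metalloproteinases bound to the matrix. Timp3 read 501, 610 and 598 in wake sham, 1452, 1628 and 1345 in sleep sham, 1401, 1422 and 1497 in wake MI and 1593, 1856 and 1847 in sleep MI. The wake sham hearts lay below every other heart, and the wake MI hearts were below the sleep MI hearts by a smaller step. The difference was 1.06 (SE 0.15, 95% interval 0.74 to 1.39, limma adjusted p = 0.0516), of which the sham pair gave -1.35 (limma adjusted p = 2.16e-05) and the MI pair -0.29 (limma adjusted p = 0.675). Timp3 rose by 1.32 in wake hearts (limma adjusted p = 1.96e-05), and the sleep difference was 0.26. Averaged over MI and sham, the wake minus sleep difference was -0.82 (limma adjusted p = 7.59e-05). The difference of the effects was 1.11 without Wake-SH replicate 2 (limma adjusted p = 0.0115) and 1.12 without Sleep-SH replicate 3 (limma adjusted p = 0.00674). It ranged from 0.97 to 1.12 with 1 array left out.

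Several further genes shared an adjusted p of 0.133 in limma. Tcap, the titin cap of the sarcomere, had a small SE, with a difference of 0.62 (SE 0.12), and was lower at ZT23 in both pairs. It read 2301, 2117 and 2261 in wake sham against 5412, 4713 and 5547 in sleep sham (-1.22, limma adjusted p = 1.06e-05). In MI hearts it read 3298, 3135 and 3129 against 4627, 4804 and 5074 (-0.60, limma adjusted p = 0.0212). Sesn1, a stress-induced p53 and FoxO target, had a difference of 1.36 (SE 0.27), with 476, 792 and 452 in wake sham, 1084, 1129 and 1160 in sleep sham, 995, 1093 and 1339 in wake MI and 906, 715 and 1045 in sleep MI. The Sesn1 difference was 1.61 without Wake-SH replicate 2 (limma adjusted p = 0.00655) and ranged from 1.22 to 1.61 with 1 array left out. Malat1, a nuclear long noncoding RNA, had 0.95 (SE 0.18), although 2 of its 5 probe sets had the opposite sign. Ddah2, which degrades an inhibitor of nitric oxide synthase, had -1.02 (SE 0.21), with 196, 188 and 167 in wake sham, 126, 104 and 129 in sleep sham, 129, 87.9 and 122 in wake MI and 186, 159 and 139 in sleep MI. Per1, described with the clock genes, was also at 0.133.

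Glucocorticoid-responsive genes stood at the positive end of the gene lists. This list, like the others, was chosen with earlier results of these data known, so its counts and median are a description. All 22 of the 22 listed were tested, and all had a positive difference, from 0.18 for Angptl4 to 2.79 for Mt2, with a median of 0.94 against -0.01 over all genes. None passed the adjusted test, and 16 of 22 had an unadjusted p below 0.05 (5.52% of all genes in that direction). Between the shams, 9 of 22 were called lower in wake sham (1.1% of all genes): Mt2, Mt1, Map3k6, Per1, Cebpb, Cebpd, Fkbp5, Zbtb16 and Klf9. The median wake minus sleep difference was -0.87 in sham and -0.03 in MI hearts, where 0 of 22 passed (0.074% of all genes). After MI 17 of 22 rose in wake hearts (7.81% of all genes rose). In sleep hearts 1 rose, Irs2 (1.69%), and 1 fell, Tsc22d3 (0.987%).

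Members of this list showed the same layout array by array. Map3k6, a stress-activated kinase, read 38.4, 101 and 55.3 in wake sham, 204, 243 and 168 in sleep sham, 247, 248 and 266 in wake MI and 222, 301 and 245 in sleep MI (-1.51 in the sham pair, limma adjusted p = 0.00395). Cebpd, a transcription factor of the acute phase, read 197, 472 and 287 in wake sham, 1115, 1185 and 525 in sleep sham, 1299, 994 and 1166 in wake MI and 1089, 1397 and 1218 in sleep MI (-1.51, limma adjusted p = 0.0211). Fkbp5, a co-chaperone that dampens the glucocorticoid receptor, read 184, 362 and 128 in wake sham and 528, 856 and 480 in sleep sham (-1.48, limma adjusted p = 0.0296). In its MI hearts the range was 461 to 749 at ZT23 and 604 to 904 at ZT11. In each of these genes wake sham lay below sleep sham without overlap, and the MI groups overlapped.

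Tsc22d3, the leucine zipper protein GILZ, differed from them in that the MI hearts were level with the wake sham. It read 602, 1084 and 789 in wake sham, 1630, 1544 and 1202 in sleep sham, 711, 899 and 615 in wake MI and 646, 779 and 946 in sleep MI. It fell by 0.875 after MI in sleep hearts (limma adjusted p = 0.0369). Cdkn1a, the cell cycle inhibitor p21, was mostly the MI pair's: it read 2752, 2458 and 2176 in wake MI and 1136, 1262 and 1690 in sleep MI without overlap. In sham it read 338, 896 and 368 at ZT23 and 641, 975 and 312 at ZT11. Its difference was 1.12 (SE 0.52, limma adjusted p = 0.475), with 0.86 in the MI pair (limma adjusted p = 0.712). Pdk4, which shuts glucose out of oxidation, had a difference of 0.82 and a sham difference of -0.74 (limma adjusted p = 0.0622).

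The count of 9 called lower between shams depended on the arrays. It was 3 without Wake-SH replicate 1, 4 without Wake-SH replicate 3 or Sleep-SH replicate 2, 7 without Sleep-SH replicate 1, 13 without Wake-MI replicate 3 and 14 without Wake-SH replicate 2 or Sleep-SH replicate 3. The beta-actin term left 3. The median difference stayed at 0.75 to 1.12 with any 1 array left out. In the test of the difference 4 members passed without Wake-SH replicate 2 and 4 without Sleep-SH replicate 3. Of all 8109 genes, 22 and 37 passed in these settings.

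**Figure D4:**
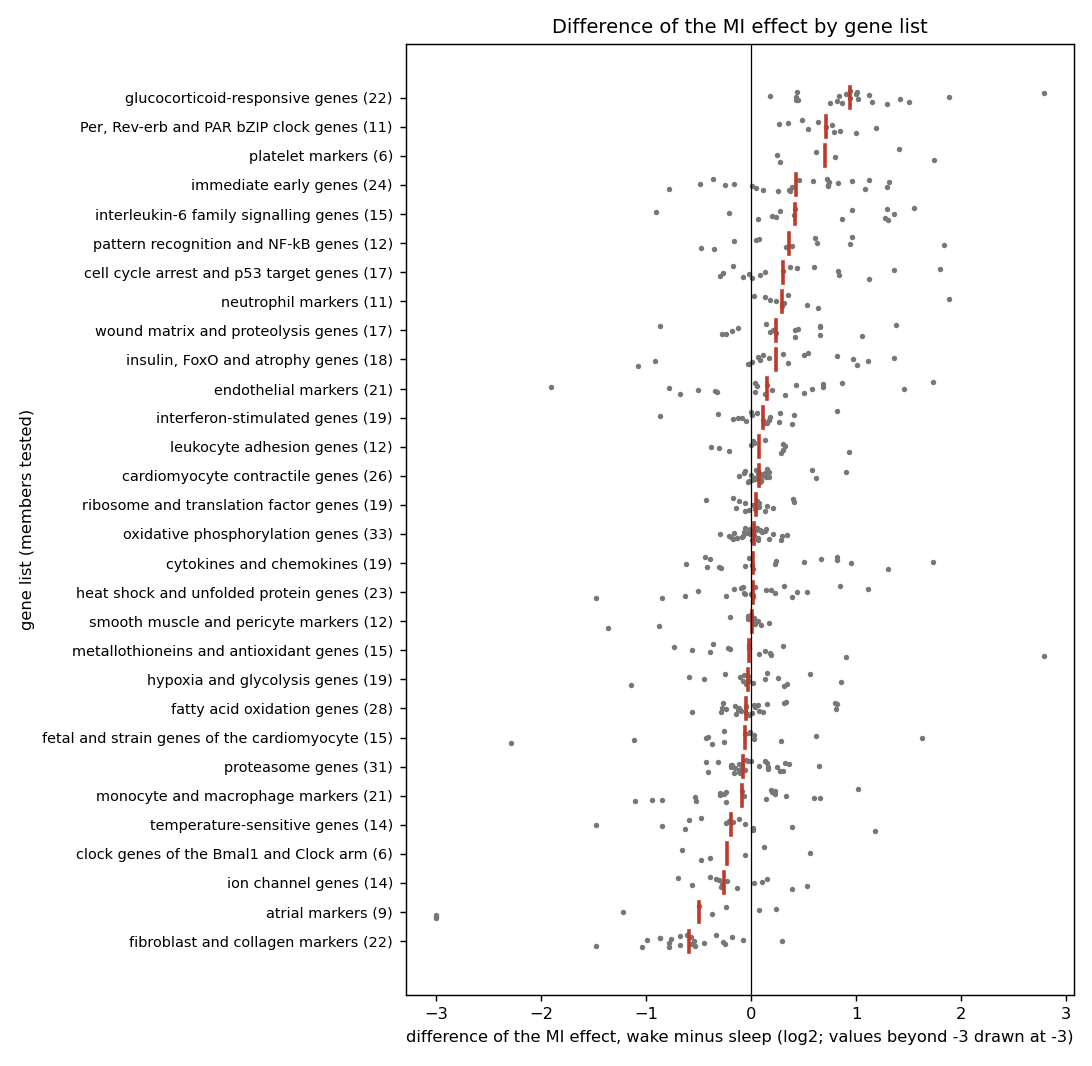
Difference of the MI effect (wake minus sleep, log2) for each tested member (grey points) of 30 gene lists, with the list's median as a red bar and the number tested in brackets; values beyond -3 are drawn at -3. The glucocorticoid list has the highest median, 0.94, and the fibroblast and collagen list the lowest, -0.59. The lists were chosen with earlier results of these data known.

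Clock genes of the Per and Dbp side were lower at ZT23 between shams, fewer of them were called between MI hearts, and none passed the test of that difference. Of 13 listed Per, Rev-erb and PAR bZIP genes 11 were tested, all 11 had a positive difference (median 0.71), and 7 had an unadjusted p below 0.05 (5.52% of all genes). Between shams 8 of 11 were called lower at ZT23 (1.1% of all genes), and between MI hearts 2, Dbp and Nr1d2 (0.037%). The sham count was 5 without Wake-SH replicate 1, Wake-SH replicate 3 or Sleep-SH replicate 2 and 6 with the beta-actin ratio in the model. The MI count was 0 without Wake-MI replicate 2, Sleep-MI replicate 1 or Sleep-MI replicate 2.

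Dbp, the PAR bZIP activator of clock output, read 105, 59.5 and 107 in wake sham and 814, 682 and 963 in sleep sham (-2.99, limma adjusted p = 9.69e-05). In MI hearts it read 84, 102 and 190 at ZT23 and 595, 492 and 315 at ZT11 (-1.80, limma adjusted p = 0.0283). The times stayed apart in both, and the difference of the MI effect was 1.19 (SE 0.39, limma adjusted p = 0.326). Nr1d2, or Rev-erb beta, read 364, 549 and 354 in wake sham and 1423, 1633 and 1434 in sleep sham (-1.81, limma adjusted p = 0.000155), and 387, 314 and 532 in wake MI against 1119, 1134 and 1145 in sleep MI (-1.46, limma adjusted p = 0.00711). Its difference was 0.35, and -0.032 with the mean of its probe sets, of which the other had a mean signal of 4.78 against 866. Nr1d1 had a difference of 0.27, which was -0.00046 without Wake-SH replicate 2, with -1.34 in sham (limma adjusted p = 0.0277) and -1.08 in MI hearts.

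Per1, a repressor of the clock that glucocorticoids also induce, was apart between shams and level between MI hearts. It read 84, 122 and 76.9 in wake sham, 203, 247 and 187 in sleep sham, 207, 174 and 202 in wake MI and 216, 198 and 194 in sleep MI. The difference was 1.004 (SE 0.21, 95% interval 0.55 to 1.45, limma adjusted p = 0.133), and the sham pair gave -1.06 (limma adjusted p = 0.00305). Per1 rose by 0.95 after MI in wake hearts (limma adjusted p = 0.00106), and its sleep difference was -0.055. Without Wake-SH replicate 2 the difference of effects was 1.18 (limma adjusted p = 0.0155), and it ranged from 0.89 to 1.18 with 1 array left out. Per2 read 45.2, 51.1 and 45.4 in wake sham, 91.3, 122 and 85.3 in sleep sham, 59.1, 80.3 and 66.3 in wake MI and 63, 67.2 and 88.9 in sleep MI. Its difference was 0.79 (SE 0.21), with -0.86 in sham (limma adjusted p = 0.0127) and -0.07 in MI hearts.

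Per3 and the PAR factors Tef and Hlf fell after MI in sleep hearts. The sleep differences were -1.16 for Per3 (limma adjusted p = 0.0198), -0.65 for Tef (limma adjusted p = 0.0192) and -0.82 for Hlf (limma adjusted p = 0.0385). Tef read 279, 227 and 250 in wake sham, 493, 447 and 569 in sleep sham, 243, 233 and 321 in wake MI and 330, 296 and 315 in sleep MI, so that the MI hearts of both times lay nearer the wake sham. For Per3, 1 of 3 probe sets gave the opposite sign, -0.13 at a mean signal of 11.9, against 49.9 for the one used. The Per3 difference of 0.85 was 0.54 without Wake-MI replicate 3 and 0.38 with the beta-actin term. Cry2 had a difference of 0.54 with no call in either pair.

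The promoters of Per1 and Per3 are shown for their clock motifs, from RefSeq on GRCm38.p6, as the 250 bases before the start: Per1, its first listed promoter, at chr11:69098699-69098948 (plus strand) and Per3 at chr4:151044666-151044915 (minus strand). Capitals mark an E-box (CACGTG, a site of Bmal1 and Clock) at -166 in Per1. In Per3 they mark D-boxes (TTATGTAA or TTACGTAA on either strand, sites of Dbp, Tef, Hlf and Nfil3) at -205 and -158 and metal core letters at -181, -132 and -47.
Per1: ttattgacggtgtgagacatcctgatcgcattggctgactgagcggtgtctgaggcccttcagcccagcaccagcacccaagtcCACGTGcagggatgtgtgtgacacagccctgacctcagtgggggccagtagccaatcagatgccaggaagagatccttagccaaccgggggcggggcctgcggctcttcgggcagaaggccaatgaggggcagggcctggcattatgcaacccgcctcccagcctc
Per3: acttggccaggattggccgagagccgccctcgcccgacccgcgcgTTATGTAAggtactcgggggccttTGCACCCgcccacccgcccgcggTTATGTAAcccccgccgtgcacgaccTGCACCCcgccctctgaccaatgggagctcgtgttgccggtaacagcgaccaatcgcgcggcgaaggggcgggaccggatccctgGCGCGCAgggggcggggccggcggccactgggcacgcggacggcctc
The E-box occurred in 7.15% and the D-box in 1.06% of the 32851 promoters, and in any promoter of 5 and 1 of the 30 genes searched.

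On the Bmal1 side, 6 of 7 listed genes were tested, with a median difference of -0.22. Of these, 2 were called higher in wake sham, Arntl and Nfil3 (0.419% of all genes). Arntl (Bmal1) read 113, 133 and 98 in wake sham and 26.4, 18.6 and 30.6 in sleep sham (1.67, limma adjusted p = 0.00124), and 117, 110 and 56.9 in wake MI against 26.3, 33.6 and 33.6 in sleep MI (1.19, limma adjusted p = 0.0571). Both pairs were apart without overlap, and the difference was -0.48. Nfil3, a repressor that binds D-boxes, read 226, 206 and 229 in wake sham and 86.9, 93.2 and 54.2 in sleep sham (1.35, limma adjusted p = 0.000446). It rose after MI at both times, by 0.94 in wake and 1.61 in sleep hearts, a difference of -0.66.

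Cry1 alone among the clock genes had its time difference called in the MI pair and not in the sham pair. It read 104, 114 and 120 in wake MI and 43.2, 44.9 and 42.5 in sleep MI (1.11, limma adjusted p = 0.00711), and 86.9, 79.6 and 66 against 41.6, 62.7 and 40.8 in the shams (0.55, limma adjusted p = 0.0769). The difference between those steps, 0.56, had an unadjusted p of 0.0141 and did not pass the adjustment in limma. Clock had -0.39 and Npas2 -0.06, a sign that turned with single arrays left out.

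**Figure D5:**
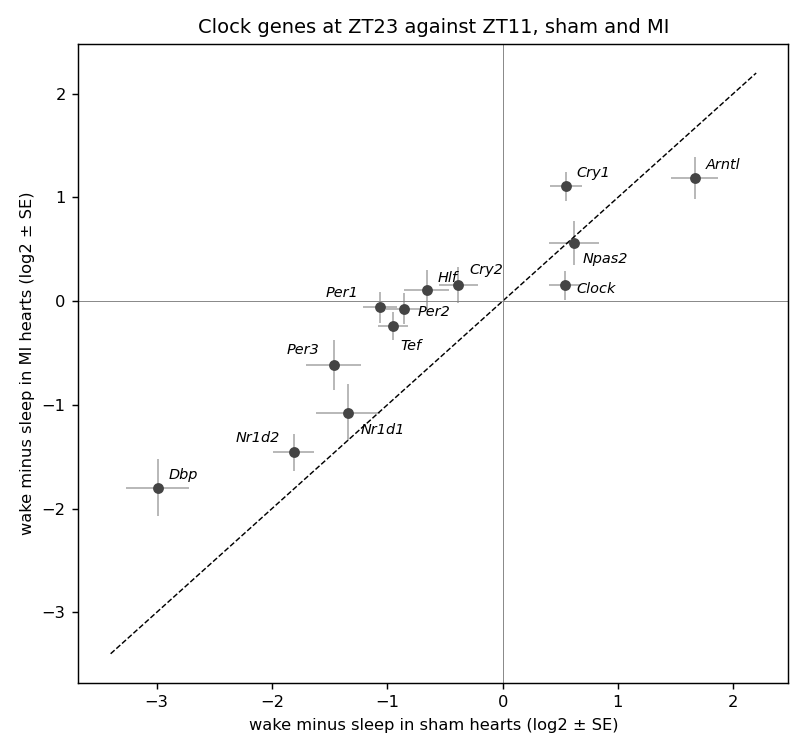
Wake minus sleep in MI hearts (vertical axis) against wake minus sleep in sham hearts (horizontal axis), log2 ± SE from limma, for 13 clock genes; the dashed line marks equal steps. The 9 Per, Cry2, Rev-erb and PAR bZIP genes lie above the line, Dbp at -2.99 in sham and -1.80 in MI, and Arntl lies below it at 1.67 and 1.19.

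Most immediate early genes rose after MI at both times, and none passed the test of the difference. Of 26 listed immediate early genes 24 were tested, 20 rose in wake (7.81% of all genes) and 14 in sleep hearts (1.69%). The median difference was 0.43, with 5 positive (5.52%) and 1 negative (4.93%) at an unadjusted p below 0.05. Fos rose by 3.99 and 3.73, a difference of 0.26 that turned to -0.20 with the beta-actin covariate, and Egr1 had a difference of 1.30, which was 0.43 without Sleep-SH replicate 2 and 0.73 without Wake-MI replicate 3. Maff, a small Maf factor, read 33.4, 52.5 and 42.6 in wake sham, 140, 171 and 87.2 in sleep sham, 269, 359 and 267 in wake MI and 253, 323 and 312 in sleep MI, with a sham difference of -1.31 (limma adjusted p = 0.00517). Zfp36, which destabilises cytokine mRNAs, and Btg2 were also lower in wake sham (-1.31 and -0.75, limma adjusted p = 0.0133 and 0.0228). Without Sleep-SH replicate 3, 3 of these genes passed the test of the difference and 8 were called lower in wake sham. In that setting 37 of all 8109 genes passed it, and 229 were called between shams in either direction.

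Of 16 listed interleukin-6 family genes 15 were tested, with a median difference of 0.42. The cytokine itself, Il6, read 0.395, 2.53 and 3.75 in wake sham, 71, 97.8 and 3.19 in sleep sham, 227, 283 and 293 in wake MI and 446, 522 and 174 in sleep MI. Il6 rose at both times, and its difference of 1.30 (SE 0.72, limma adjusted p = 0.547) was 3.07 with 1 and 0.45 with 64 added before log2. It was 2.09 without Sleep-SH replicate 3 (limma adjusted p = 0.0521), 0.81 without Sleep-SH replicate 2 and 0.84 without Sleep-MI replicate 3. Osmr, the oncostatin M receptor, read 121, 195 and 143 in wake sham, 515, 520 and 224 in sleep sham, 408, 417 and 449 in wake MI and 362, 450 and 492 in sleep MI. Its difference was 1.27 (SE 0.36, limma adjusted p = 0.239) and its sham difference -1.30 (limma adjusted p = 0.0214). The feedback inhibitor Socs3 had 1.36 (SE 0.75, limma adjusted p = 0.547) with Sleep-SH replicate 3 at 68.8 beside 296 and 440, and was 2.08 without that array, 0.87 without Sleep-SH replicate 2 and 0.82 without Wake-MI replicate 3. Cish, another such inhibitor, ran the other way with -0.90 and was higher in wake sham by 0.95 (limma adjusted p = 0.0364). Without Sleep-SH replicate 3, where 37 of all 8109 genes passed the test of the difference, the median was 0.93 and 2 of the 15 passed. They were Osmr and Il4ra, the latter a list member that is the receptor chain for interleukin-4 and interleukin-13. Among chemokines, Cxcl1 had a difference of 0.95, which was 1.86 without Sleep-SH replicate 3 (limma adjusted p = 0.0184), 0.38 without Sleep-SH replicate 2 and 0.62 without Sleep-SH replicate 1. Ccl2 had a difference of -0.29, which was 0.17 without Sleep-SH replicate 3. S100a8 and S100a9, the calprotectin subunits of neutrophils, had 0.64 and 0.29. Without Wake-SH replicate 1 they were 0.18 and -0.25, and S100a8 was 1.12 without Wake-SH replicate 2, 1.04 without Sleep-SH replicate 3 and 0.38 without Sleep-SH replicate 2.

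Of 18 insulin, FoxO and atrophy genes tested of 21 listed, 14 had a positive and 4 a negative difference, with 5 positive (5.52% of all genes) and 2 negative (4.93%) at an unadjusted p below 0.05. Irs1, an insulin receptor substrate, read 431, 659 and 433 in wake sham, 238, 196 and 219 in sleep sham, 272, 353 and 245 in wake MI and 270, 282 and 269 in sleep MI. Its difference was -1.07 (SE 0.23, limma adjusted p = 0.133), and it was higher in wake sham by 1.14 (limma adjusted p = 0.00361). Foxo3, the transcription factor that insulin signalling holds out of the nucleus, read 176, 313 and 157 in wake sham, 500, 466 and 460 in sleep sham, 293, 285 and 290 in wake MI and 279, 269 and 341 in sleep MI. Its difference was 1.12 (SE 0.26, limma adjusted p = 0.16) and its sham difference -1.15 (limma adjusted p = 0.00717). For Irs1 the MI hearts of both times lay between the shams, and for Foxo3 they lay below every sleep sham heart. Irs2, another insulin receptor substrate, had a positive difference of 1.01. Vegfa, the endothelial growth factor, was likewise higher in wake sham, with 491, 374 and 336 in wake sham, 212, 166 and 144 in sleep sham, 260, 466 and 318 in wake MI and 355, 317 and 357 in sleep MI. Its difference was -1.15 (SE 0.27, limma adjusted p = 0.167), with 1.13 in sham (limma adjusted p = 0.0103).

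Fibroblast and collagen genes stood at the negative end, with more of them mostly the MI pair's than mostly the sham pair's. Of 23 listed 22 were tested, 21 of the 22 had a negative difference (median -0.59), and 8 were negative at an unadjusted p below 0.05 (4.93% of all genes). Between shams 0 of 22 were called (1.52% of all genes), and between MI hearts also 0 of 22 (0.074% of all genes). The median wake minus sleep difference was -0.35 in MI and 0.23 in sham hearts, and the larger part was the MI pair's for 9 genes, the sham pair's for 4 and shared for 9. After MI 7 of 22 fell in wake hearts (10.6% of all genes fell) and 0 in sleep hearts. Col1a1, the main fibrillar collagen chain, read 36, 48 and 51.2 in wake MI and 102, 82.8 and 88.3 in sleep MI without overlap. In sham it read 119, 75.3 and 128 at ZT23 and 85.6, 60.6 and 127 at ZT11. It fell by 0.997 after MI in wake hearts (limma adjusted p = 0.00683), and the difference was -1.04 (SE 0.30, limma adjusted p = 0.259). The test of unequal parts, the wake minus sleep difference averaged over MI and sham, did not pass for Col1a1 (limma adjusted p = 0.511).

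The fibroblast result moved with 1 array. Without Wake-SH replicate 3 the median was -0.39 and 3 rather than 7 genes fell in wake hearts, and with the beta-actin ratio in the model 2 fell. Summed over 23 of 23 markers the signal was 8596 to 11276 in wake MI, 11559 to 18321 in wake sham, 11579 to 14888 in sleep MI and 11017 to 15266 in sleep sham, with none at 0 or under 16 throughout. The 21 macrophage and monocyte genes tested of 26 listed went both ways, with 9 positive and 12 negative differences from -1.11 to 1.02 and a median of -0.09. At an unadjusted p below 0.05, 2 were positive, Lyve1 and Cd163 (5.52% of all genes). In the other direction 3 were negative, Adgre1, Lyz2 and Lyz1 (4.93% of all genes). Adgre1, which encodes F4/80, read 141, 132 and 206 in wake sham, 76.1, 67.5 and 89.2 in sleep sham, 72.3, 73.9 and 96 in wake MI and 113, 104 and 75.3 in sleep MI (difference -1.11, SE 0.25, limma adjusted p = 0.133). The summed signal of this list was 8706 to 13328 in wake sham and 7593 to 8717 in wake MI, against 9311 to 9923 in sleep sham and 9148 to 9767 in sleep MI. Of the 25 measured none was at 0 and 1 was under 16 throughout, and the part of either cell type in these results was not tested.

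Lists of contraction, energy supply and protein turnover had medians close to that of all genes. The median difference was 0.08 for 26 contractile genes, 0.03 for 33 oxidative phosphorylation genes, -0.04 for 28 fatty acid oxidation genes and -0.07 for 31 proteasome genes, beside -0.01 over all genes. At an unadjusted p below 0.05 there were 3, 2, 2 and 3 genes, against 10.5% of all genes, and a p that misses the threshold does not show that the effects were equal. The 23 heat shock and unfolded protein genes had a median of 0.02, and the co-chaperone Dnajb1 rose at both times, by 0.85 in wake and 1.47 in sleep hearts, a difference of -0.63 that was -0.41 without Sleep-MI replicate 3. Cirbp, an RNA-binding protein induced by cold, had a difference of 1.18 with 56.4, 99.5 and 83.4 in wake sham, 120, 215 and 194 in sleep sham, 281, 215 and 191 in wake MI and 259, 240 and 122 in sleep MI. Of the 21 endothelial genes tested of 22 listed, 7 were positive (5.52% of all genes) and 1 negative (4.93%) at an unadjusted p below 0.05. Rgcc, Ramp2 and Aqp1 were called lower in wake sham (1.1% of all genes), and Sox18 had -0.78, or -0.42 without Wake-MI replicate 3. The summed endothelial signal was 16001 to 16885 in wake sham and 18363 to 19498 in sleep sham, against 18961 to 21765 and 18764 to 19928 in wake and sleep MI, and its part in these results was not tested.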

How the data were processed

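Heart RNA from 12 mice was hybridised in a single colour to Affymetrix arrays. The values are MAS5 signal intensities, deposited by the authors as a table of 22690 probe sets and made with MAS5 per the submitters' processing notes (version: not given in the sources used here). A 2% trimmed mean of each array lay at 150.09 to 150.1, so arrays were already scaled, and the values were kept. Labels give 3 biological replicates a group, and no 2 arrays held identical values.

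Log2(signal + 16) was taken, 64 control probe sets were left out, and each of 12393 genes was read from its brightest probe set with 1 symbol (20380 probe sets had 1 symbol, 691 several and 1555 none, per GEO's platform annotation). Genes with a mean signal above the 40th percentile, 17.3, were tested (8109). limma 3.58.1 in R 4.3.3 (lmFit and eBayes with trend, 8 residual degrees of freedom) fitted 4 group means, and contrasts gave the difference of effects, both effects and both pairs, two-sided, with Benjamini-Hochberg adjustment over all genes and a threshold of 0.05. Differences are on the log2(signal + 16) scale and understate changes at low signal. Genes called for the difference would be named first; with none called, the 12 largest in each direction, the 12 smallest p-values and a panel of clock, stress and injury genes were named, with the leading genes of 36 lists (23 pathway and 13 cell type marker lists). Members and lists were chosen with earlier results of these data known. Genes singled out within lists beyond the rule (such as Map3k6, Irs1, Foxo3, Vegfa and Adgre1) were chosen after their values were seen, and so was the glucocorticoid motif. The code was tested on simulated data. Alternatives were another added constant, filter, probe set choice, scaling, fit, threshold and covariate, each array left out, and a replicate block. The number of arrays limits the precision.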

Additional observations from a re-analysis of the deposited data

Results flagged for a closer look

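In 5 of the genes named, the MI hearts of the wake and sleep groups moved in opposite ways from their shams without overlap on either side, which 45 of 8109 genes did (0.555%). These 5 were named for the size or the p-value of the difference, which such a layout makes larger, so the count is a description. The difference had the opposite sign in 2 of the 5 probe sets of Malat1 and 1 of the 2 of Tm4sf1. The mean signals of those sets were 39 and 129 for Malat1 and 21 for Tm4sf1, against 903 and 801 for the sets used. The difference of the effects was 1.61 for Adh1, -1.32 for Tm4sf1, 0.95 for Malat1, 1.36 for Sesn1 and -1.02 for Ddah2. It was tested for each gene and did not pass (limma adjusted p = 0.133 for each). Adh1, Malat1 and Sesn1 were higher in MI than in sham at ZT23 and lower at ZT11, and Tm4sf1 and Ddah2 the reverse. For Malat1, 599, 573 and 687 in wake sham and 892, 966 and 1186 in wake MI stood beside 1047, 973 and 1219 in sleep sham and 911, 829 and 959 in sleep MI.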

How the results depend on the processing

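The 0 genes called for the difference became 1 with a 60th percentile filter (Timp3), 1 with median centring, 1 with a robust fit, 2 with quantile normalization (Timp3 and Tcap), 39 with array weights (30 positive, 9 negative) and 22 without Sleep-SH replicate 3 and Wake-SH replicate 3, with 0 to 37 when 1 array was left out; 6 genes were shared by the 37 without Sleep-SH replicate 3 and the 22 without Wake-SH replicate 2. With 3 arrays a group, the values cannot settle whether replicate numbers pair the samples. Deviations from the group means correlated at -0.170 to 0.254 in 18 same-numbered pairs, 5 of them over 0.1. In 36 pairs of other numbers they correlated at -0.197 to 0.284. With the replicate block 3 genes were called for the difference (Mt2, Timp3 and Malat1) and 3 between MI hearts. The 848 genes at unadjusted p became 1404 with every probe set and 1278 with array weights. The 6 called between MI hearts were 2 without a filter, 3 with the mean of probe sets, 3 without trend, 2 at adjusted p below 0.01, 3 at a size of at least 1, and 0 to 7 with an array left out. The 123 between shams were 75 without a filter, 71 with the mean of probe sets, 369 with array weights, 38 with the beta-actin covariate, 33 at 0.01, 54 at a size of at least 1, and 30 to 229 with an array left out. The 1495 of the wake effect were 272 with the beta-actin covariate, 567 at 0.01, 234 at a size of at least 1, 861 without both sham arrays, and 838 to 1520 with an array left out. The 217 of the sleep effect were 140 without a filter, 418 with array weights, 51 at 0.01, 84 at a size of at least 1, 69 without both sham arrays, and 57 to 290 with an array left out. Among the 848, the share that was mostly the sham pair's, 45.3%, was 68.2% with a limit of 1 part in 2 and 34.4 to 59.4% with an array left out, and the MI pair's 12.9% was 31.8%, 7.68% without both sham arrays and 7.95 to 21.5%. Signs turned for Nr1d2 (-0.032, mean of probe sets), Npas2 (0.057 with array weights, 0.21 with the beta-actin covariate), Fos (-0.20 with the covariate), Ankrd1 (0.051 with the covariate) and Ccl2 (0.28 without both sham arrays). With 1 array left out they ranged from -0.21 to 0.17 for Npas2, -0.17 to 0.71 for Fos, -0.68 to 0.064 for Ankrd1, -0.25 to 0.76 for S100a9, -0.00046 to 0.43 for Nr1d1, -0.80 to 0.31 for Nppa and -0.70 to 0.17 for Ccl2. The cause was not tested. In the other cases 1601 single-gene values kept their direction and their side of the threshold, and 51 kept their direction and passed it. The filter on mean log2 value, the list counts by array and the pair of sham arrays were added after seeing the data.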
